A study of Rattus norvegicus with 12 samples.

Results

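Cytosolic ribosomal protein genes were examined in atrial appendages, right and left, of male rats of the Sprague-Dawley strain, among them Rpl3l, the form of Rpl3 that is expressed mainly in heart and skeletal muscle. A member was a gene whose single symbol in the array annotation follows the ribosomal protein naming pattern (Rpl or Rps with a number) or is Rplp0, Rplp1, Rplp2 or Rpsa. Kinases of ribosomal protein S6 were left out. This gave 48 of the 14217 genes with a probe set of their own, 15 of the small subunit, 32 of the large subunit and 1 of the stalk (Rplp0). They were read by 55 of 31042 probe sets, and the probe set with the highest mean over all arrays stood for a gene. A further 36 probe sets were annotated to several genes of which at least 1 fitted the pattern. They were left out, and Rplp1 and Rplp2, which had no probe set of their own, were not analysed here.

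There were 4 groups of 3 arrays, sham and shunt animals for either atrium. The shunt was an aorto-caval connection, which overloads the heart with volume, and tissue was taken 28 days after the shunt or the sham operation. Every array held RNA pooled from 2 tissues. The p-values therefore cover only the spread from pool to pool. The age of the rats was not given, and the tissue entry of all samples names ventricles besides atria. The 9 measured atrial cardiomyocyte markers, which include the atrial peptide gene Nppa and the atrial light chain gene Myl7, had a summed level between 16.01 and 16.11 on the log2 scale on every array. That sum is carried by bright genes, among them Nppa (mean 14.41), Myl7 (14.20) and Myl4 (13.71). They lie near the top of the scale, where differences can be compressed. The sum thus shows that atrial transcripts were abundant and not that their share was constant. Of the dimmer markers Kcna5 fell in the right atrium after the shunt (-0.92).

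The ribosome is built from a small and a large subunit, and each ribosomal protein is made in step with the others because free copies are degraded. The messenger RNAs of most ribosomal proteins start with a terminal oligopyrimidine tract, a run of C and T (U in RNA), through which the mTOR kinase sets how well they are translated. Growth of cardiomyocytes needs more ribosomes. Rpl3 sits near the peptidyl transferase centre of the large subunit, and Rpl3l takes its place in part of the ribosomes of adult striated muscle.

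The windows around the gene starts are shown for Rpl3l and Rpl3, the paralog pair, and for Rpl13a and Rpl35a, large subunit genes that differed between the atria in both sham and shunt animals. They are RefSeq sequences of build GRCr8, from 250 bases before to 50 bases after the start, 5′ to 3′ on the strand of the gene. Rpl3l lies at chr10:14258196-14258495 on the plus strand, Rpl3 at chr7:113507941-113508240 on the minus strand, Rpl13a at chr1:104748864-104749163 on the minus strand and Rpl35a at chr11:81234972-81235271 on the minus strand. Capitals mark the pyrimidine run at or just before the start in Rpl13a and Rpl35a, a match to the MCAT core (CATTCC, here on the other strand) in Rpl3l and a TATA box (TATAAA, on the other strand) in Rpl3.
Rpl3l: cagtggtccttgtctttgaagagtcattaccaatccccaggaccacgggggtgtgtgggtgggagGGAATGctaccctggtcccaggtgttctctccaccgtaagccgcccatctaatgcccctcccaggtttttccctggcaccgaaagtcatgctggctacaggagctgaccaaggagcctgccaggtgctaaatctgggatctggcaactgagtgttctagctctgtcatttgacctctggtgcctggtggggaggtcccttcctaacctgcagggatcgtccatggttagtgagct
Rpl3: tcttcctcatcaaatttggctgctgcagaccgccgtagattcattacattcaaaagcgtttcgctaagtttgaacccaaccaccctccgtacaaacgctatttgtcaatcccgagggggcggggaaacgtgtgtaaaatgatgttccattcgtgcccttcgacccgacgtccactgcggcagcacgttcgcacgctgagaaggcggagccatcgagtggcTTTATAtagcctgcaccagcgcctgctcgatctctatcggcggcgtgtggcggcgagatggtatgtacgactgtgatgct
Rpl13a: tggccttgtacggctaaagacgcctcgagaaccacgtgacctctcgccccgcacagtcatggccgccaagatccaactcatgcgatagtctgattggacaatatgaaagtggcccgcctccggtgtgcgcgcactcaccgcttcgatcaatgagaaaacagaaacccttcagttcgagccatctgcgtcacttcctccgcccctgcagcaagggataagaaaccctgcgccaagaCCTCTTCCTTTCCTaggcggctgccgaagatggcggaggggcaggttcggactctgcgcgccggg
Rpl35a: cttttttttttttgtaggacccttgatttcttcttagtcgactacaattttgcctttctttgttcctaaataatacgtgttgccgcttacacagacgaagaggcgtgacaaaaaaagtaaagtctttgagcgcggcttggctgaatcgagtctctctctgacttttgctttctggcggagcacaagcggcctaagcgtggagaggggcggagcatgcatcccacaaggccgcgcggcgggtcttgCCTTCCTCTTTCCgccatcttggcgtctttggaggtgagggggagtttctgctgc

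A run of at least 6 pyrimidines with a base within 2 of the annotated start was found in 24 of the 43 members with a window, 55.8%, against 13.1% of 27456 windows of all genes. Rpl13a carried a run of 14 bases and Rpl35a one of 13, while no such run lay in the windows of Rpl3l and Rpl3. The run of Rpl13a began at base -15 and lay wholly before the annotated start, so none of it is in the annotated transcript. That of Rpl35a began at base -5 and spanned the start. Of 5 other motifs searched on both strands, the ETS core CCGGAA was in 39.5% of the members' windows (15.8% of all) and the YY1 core GATGGC in 32.6% (14.7% of all). The E-box CACGTG was in 6.98% (6.65%), the TATA box TATAAA in 14% (14.3%) and the MCAT core CATTCC in 18.6% (13.9%). The 24 members with a run had a median left minus right difference of -0.05 in sham animals, with 1 higher and 5 lower past the threshold, and the 19 without had -0.03, with 3 higher and 5 lower. In shunt animals the medians were 0.0068 with a run (1 higher, 4 lower) and -0.03 without (1 higher, 3 lower). Of all genes 37.6% passed in sham and 40.5% in shunt animals. These medians are small beside the SE of a single member (0.065 in the median), so no order is read from them. A match describes the letters in the window and nothing of whether a factor binds there.

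Most members lay near the top of the scale. Levels are log2 RMA values, in which a difference of 1 is a doubling. The mean over the 12 arrays was 11 or more for 38 of 48 members, from 11.02 for Rpl14 to 13.55 for Rps29, and all 38 were among the brightest 5% of probe sets. The other 10 were Rpl7l1 (8.51), Rps4y2 (6.99), Rpl3l (6.14), Rpl39 (6.04), Rps27l (5.80), Rpl26l1 (4.56), Rps13 (4.27), Rpl30 (3.62), Rpl28 (3.45) and Rpl39l1 (3.37). The median probe set of the array lay at 5.46, so the last 5 were read by dim probe sets. Levels of different genes cannot be ordered here, since each probe set has its own response.

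The bright members hardly varied, at levels near the top of the scale, where differences can be compressed. The median within-group SD of the 38 was 0.04, and their range over the 12 arrays was 0.22 in the median and at most 0.46, that of Rpl21. Rpl3l ranged over 3.46, and the next widest member, Rps4y2, over 0.85. RMA equalises the distribution of all arrays, so a change shared by most transcripts would not show in these values. Ribosomal RNA or protein per cell is not measured by them either. The mean of the 38 bright members lay between 12.27 and 12.32 on the right shunt arrays, 12.28 and 12.30 on the right sham arrays, 12.26 and 12.30 on the left shunt arrays and 12.23 and 12.25 on the left sham arrays.

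**Figure D1:**
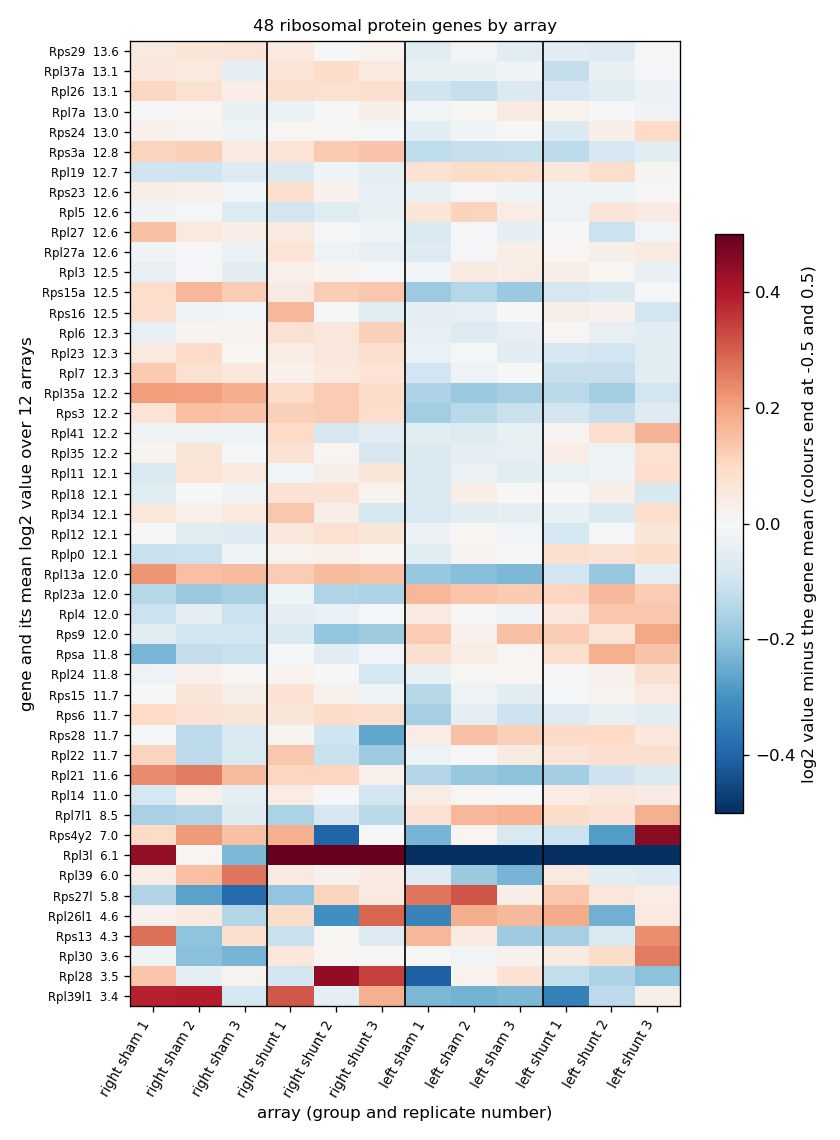
Log2 value of each of 48 ribosomal protein genes minus its mean over 12 arrays, genes in rows by falling mean (printed beside the symbol) and arrays in columns by group. Colours end at -0.5 and 0.5, which Rpl3l passes on 9 arrays; the bright genes in the upper rows stay pale, with left and right arrays parted in some of them.

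Rpl3l was the one member that rose after the shunt in the right atrium. Only 1 probe set of its own, with the suffix _a_at, read this gene, so its values have no other probe set beside them. Rpl3l lay at 6.66, 8.32 and 8.19 on right atrium shunt replicates 1, 2 and 3, and at 6.59, 6.15 and 5.92 on the right atrium sham arrays. All 3 shunt arrays were above all 3 sham arrays, but replicate 1 by only a small margin, and the shunt group was split. The difference was 1.50 ± 0.33 (SE of the fit, n = 3 pools per group, limma, adjusted p = 0.0332), a 2.84-fold rise. When replicate 1 alone stood for the right shunt group, a choice made after the values were seen, the value was 0.44. It has no test, since that array was picked for its low value. Without replicate 1 the difference was 2.04 ± 0.17 (adjusted p = 0.000594). The call was lost without replicate 2 of the right shunt group (1.21, adjusted p = 0.133) or 3 (1.27, adjusted p = 0.0961), or without right atrium sham replicate 1 (1.69, adjusted p = 0.0528), 2 (1.47, adjusted p = 0.107) or 3 (1.35, adjusted p = 0.11).

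In the left atrium Rpl3l lay at 4.86, 5.23 and 5.12 on the shunt arrays and at 5.49, 5.60 and 5.60 on the sham arrays. There all shunt arrays were below all sham arrays, the opposite order to the right atrium. The difference was -0.49 ± 0.33 (limma, adjusted p = 0.556) and did not pass. The left minus right difference of the shunt effects was -1.998 ± 0.47, which did not pass either (limma, adjusted p = 0.144), and was -2.53 ± 0.22 (adjusted p = 0.00402) without right atrium shunt replicate 1.

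Between the atria, Rpl3l was lower in the left than in the right on all arrays, an order found in 12.7% of all genes. Its left arrays lay between 4.86 and 5.60 and its right arrays between 5.92 and 8.32. After the shunt the left minus right difference was -2.65 ± 0.33 (limma, adjusted p = 9.10e-05), a 6.28-fold lower level in the left atrium, and it passed in all 20 other settings that tested it (-3.18 to -2.35). Against right atrium shunt replicate 1 alone, the lowest of its group, the value was -1.59, with no test. In sham animals the difference was -0.65 ± 0.33 (adjusted p = 0.144). It passed in a fit of the sham arrays alone (adjusted p = 0.008) and without right atrium shunt replicate 1 (adjusted p = 0.00544), in which the SE was 0.15.

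Rpl3, the ubiquitous form, hardly moved from array to array, at a level where differences can be compressed. It lay at 12.57, 12.56 and 12.54 on the right shunt, 12.51, 12.55 and 12.49 on the right sham, 12.58, 12.56 and 12.51 on the left shunt and 12.54, 12.59 and 12.59 on the left sham arrays. Its shunt minus sham difference was 0.04 ± 0.06 in the right atrium (limma, adjusted p = 0.743) and -0.02 ± 0.06 in the left (adjusted p = 0.908). Left minus right it was 0.06 ± 0.06 in sham (adjusted p = 0.491) and -0.01 ± 0.06 in shunt animals (adjusted p = 0.924).

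The within-array difference Rpl3l minus Rpl3 therefore followed Rpl3l. Its absolute size depends on the probes, so only its changes are given. Left minus right over both conditions it changed by -1.68 on the log2 scale (exact two-sided permutation test within conditions, p = 0.005, the smallest that test can give), lower in 6 of 6 left arrays than in any right array. Among the levels of all genes, 12.7% had every left array below every right array and 15.3% the reverse. Shunt minus sham over both atria, Rpl3l minus Rpl3 changed by 0.49 (exact permutation test within atria, p = 0.325). By atrium, shunt minus sham was 1.46 in the right and -0.47 in the left, and left minus right was -0.71 in sham and -2.64 in shunt animals. Each of these 4 comparisons of 3 against 3 arrays gave p = 0.1 in the exact permutation test, the smallest it allows.

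**Figure D2:**
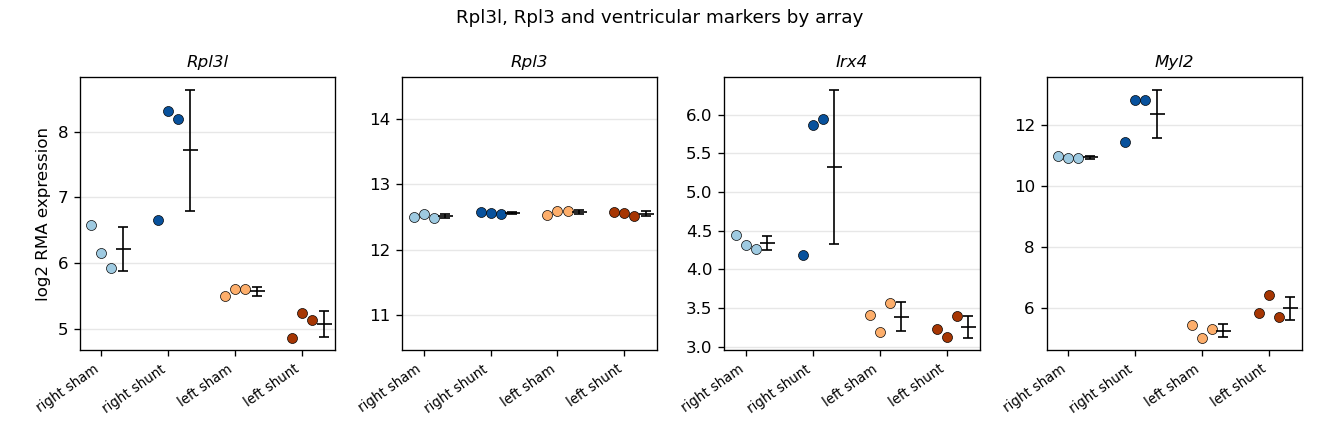
Log2 RMA values of Rpl3l, Rpl3 and the ventricular markers Irx4 and Myl2 on 12 arrays by group (points, replicates 1 to 3 from left to right; bars, mean ± SD, n = 3). Rpl3 is drawn over the same span as Rpl3l and stays flat, while Rpl3l, Irx4 and Myl2 are highest on right shunt replicates 2 and 3 and low on the left arrays.

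Some ventricular cardiomyocyte markers were high on the same right shunt arrays as Rpl3l. Irx4, a transcription factor of the ventricles, lay at 4.18, 5.86 and 5.94 on right atrium shunt replicates 1, 2 and 3 and between 4.26 and 4.44 on the right sham arrays. Myl2, the ventricular regulatory light chain, lay at 11.45, 12.83 and 12.82 against 10.90 to 10.996. Myl3, the ventricular essential light chain, lay at 10.78, 12.05 and 11.92 against 10.10 to 10.17. So replicates 2 and 3 were the highest arrays for these 3 markers. Of 7 markers on the list 4 rose in the right atrium (Myh7, Myl3, Myl2 and Hey2), none fell and 3 did not pass, with a median of 0.99. The share called was 57.1%, against 3.97% of all genes. Irx4 itself was among the 3 markers that did not pass (0.99 ± 0.34, limma, adjusted p = 0.13). Irx3 (-0.11) and Irx5 (-0.01) did not follow Rpl3l. In the left atrium, where Rpl3l was lower on the shunt arrays, Myh7 rose (1.44) and 6 did not pass, with Myl3 (1.03), Myl2 (0.73) and Hey2 (0.30) higher on every shunt than on any sham array. Of all genes 0.935% passed there, and for 19.1% the shunt and sham arrays did not overlap. Left minus right, Myl2, Myl3, Irx4 and Hey2 were lower in sham and in shunt animals, and Irx5 was higher in shunt animals (0.33). The shares called were 57.1% in sham and 71.4% in shunt animals, against 37.6% and 40.5% of all genes. The summed level of the list lay at 12.41 to 13.69 on the right shunt, 11.78 to 11.89 on the right sham, 10.30 to 10.96 on the left shunt and 9.33 to 9.89 on the left sham arrays. None of these 7 markers is listed at 0, since RMA values have a floor above it. The part of ventricular cells in the Rpl3l result was not tested, and a change in cells cannot be told apart from a change in RNA per cell in pooled tissue.

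Skeletal muscle markers, the other tissue in which Rpl3l is made, mostly did not pass: of 10 measured, Myh1 rose in the right (0.40) and left atrium (0.54), none fell and 9 did not pass in either. The share called was 10% in either atrium, against 3.97% of all genes in the right and 0.935% in the left. The summed level of these markers was 11.67 to 11.83 on the right shunt and 11.75 to 11.92 on the left shunt arrays, against 11.34 to 11.44 and 11.26 to 11.37 on the sham arrays. This sum is nearly all Myh1 (mean 11.49, the others at most 5.32), read by an _x_at probe set, a mark for probes that can cross-hybridise.

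The 8 genes whose profile over the 12 arrays was most like that of Rpl3l, by Pearson correlation and as a description only, were led by Irx4 (0.97). The others were Pals1 (0.95), Coch (0.94), Trappc11 (0.94), Kif21a (0.94), Smndc1 (0.94), Ebag9 (0.93) and Rps6kb1 (0.93), the last of which encodes a kinase of ribosomal protein S6. The arrays share their groups, so part of each value is the difference between groups. For deviations from the group means it was 0.91 for Irx4, 0.86 for Coch and 0.40 for Rps6kb1. Rps6kb1 lay at 7.99, 8.04 and 8.08 on the right shunt and at 7.76, 7.74 and 7.78 on the right sham arrays, a difference of 0.27 ± 0.07 (limma, adjusted p = 0.0529).

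None of the other 47 members passed after the shunt in the right atrium. With Rpl3l, 1 of 48 members was called, 2.08%, against 3.97% of the 14217 genes (2.83% higher). Bright members differed by -0.14 (Rpl21) to 0.13 (Rpsa), and the median member by 0.01 against 0.02 for all genes. Among proteins of the small subunit, Rpsa, also known as the laminin receptor, lay at 11.83, 11.78 and 11.83 on the shunt and 11.61, 11.72 and 11.73 on the sham arrays (0.13 ± 0.07, limma, adjusted p = 0.295). Rps6, the target of the S6 kinases, differed by 0.00 ± 0.06 (adjusted p = 0.987). Rplp0, which carries the stalk of the large subunit and is widely used as a reference gene, lay at 12.08, 12.08 and 12.07 against 11.95, 11.95 and 12.03 (0.10 ± 0.06, adjusted p = 0.409). The shunt and sham arrays of Rpsa and Rplp0 did not overlap, which was so for 9 of 48 members and 32.1% of all genes.

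In the left atrium no member passed, against 0.935% of all genes, and no member had an unadjusted p under 0.05 in the limma fit, against 14.7% of all genes. Bright members differed by -0.05 (Rpl7) to 0.14 (Rpl41), 28 of 38 of them upward, with a median of 0.03 against -0.0045 for all genes of that brightness. Rpl41, a very short basic protein, lay at 12.18, 12.25 and 12.34 on the shunt and 12.11, 12.10 and 12.13 on the sham arrays (0.14 ± 0.07, adjusted p = 0.4). Rplp0 lay at 12.14, 12.13 and 12.15 against 12.01, 12.07 and 12.05 (0.10 ± 0.06, adjusted p = 0.528). Groups did not overlap for 13 of 48 members and for 19.1% of all genes. In the interaction no member passed, against 0.0281% of all genes, and 4 members had an unadjusted p under 0.05, 8.33% against 14.5% of all genes.

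**Figure D3:**
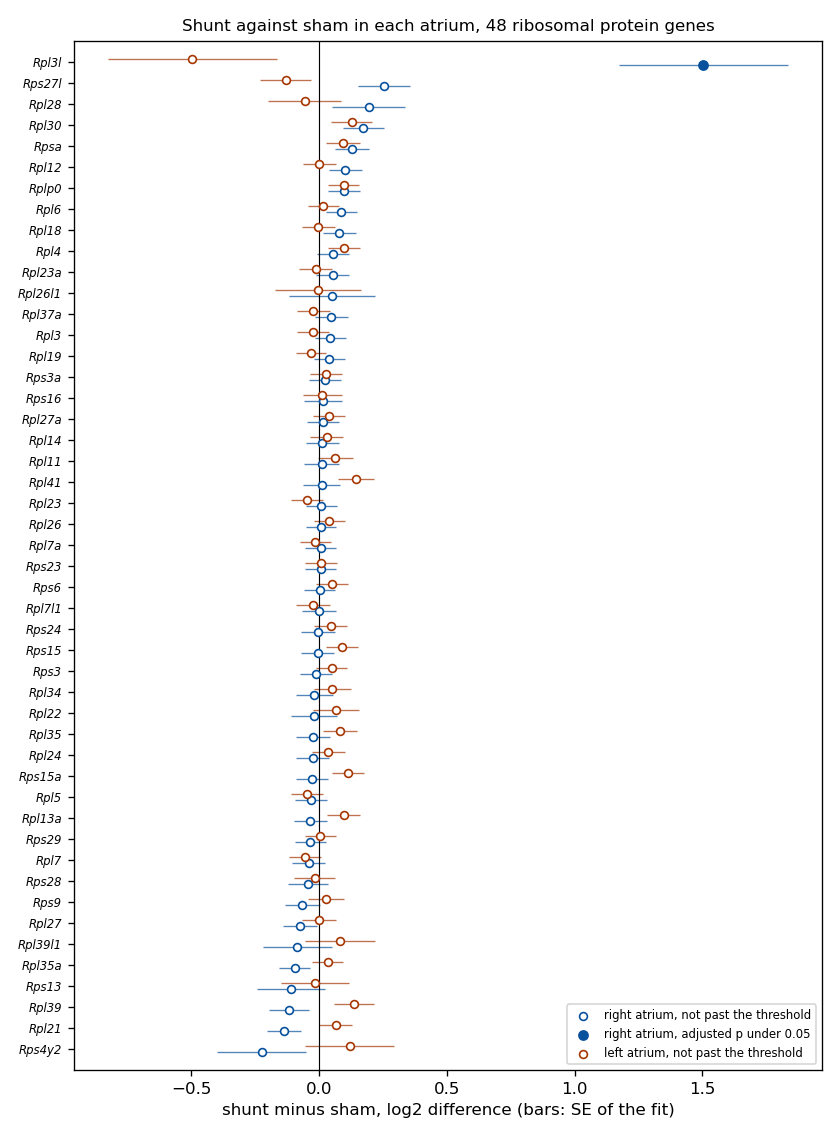
Shunt minus sham log2 difference with its SE for 48 ribosomal protein genes in the right (blue) and left (brown) atrium, ordered by the right atrium; filled points passed an adjusted p of 0.05. Rpl3l at 1.50 is the one filled point, and all bright members lie between -0.14 and 0.14.

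Paralog forms other than Rpl3l did not pass after the shunt in either atrium. Rps27l, a paralog of Rps27 that p53 induces, lay at 5.60, 5.91 and 5.85 on the right shunt and 5.65, 5.53 and 5.41 on the right sham arrays, where the groups overlapped (0.25 ± 0.10, limma, adjusted p = 0.19). In the left atrium it differed by -0.13 ± 0.10 (adjusted p = 0.62). Rpl7l1, a relative of Rpl7, differed by 0.00 ± 0.07 in the right and -0.02 ± 0.07 in the left atrium, beside -0.04 ± 0.06 and -0.05 ± 0.06 for Rpl7. Rpl26l1 (0.05 ± 0.17 and -0.01 ± 0.17) and Rpl39l1 (-0.08 ± 0.14 and 0.08 ± 0.14) were dim. Rps4y2 was uneven, at 6.88, 6.71 and 7.44 on the left and 7.17, 6.59 and 6.995 on the right shunt arrays.

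The atria themselves differed in more members and by small amounts. In sham animals 15 of 48 passed, 31.2%, with 5 higher and 10 lower in the left atrium, against 37.6% of all genes (22.2% higher and 15.4% lower). In shunt animals 10 passed, 20.8%, 3 higher and 7 lower, against 40.5% of all genes (21% higher and 19.4% lower). Of the 38 bright members 11 passed in sham and 7 in shunt animals, beside 40.8% and 34.6% of the 407 genes of that brightness. The left and right arrays did not overlap for 30 members in sham (52.8% of all genes) and 23 in shunt animals (52.6%). The median member differed by -0.04 in sham and -0.02 in shunt animals, and the median gene by 0.04 in both.

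The sham and the shunt comparison share no array, but the fit takes a common spread per probe set from all 12 arrays. Calls in sham and in shunt animals are therefore not independent of each other. Of the 15 members called in sham animals all 15 had the same sign in shunt animals, and 7 passed in both with the same sign, 46.7% of the sham calls and 70% of the shunt calls. Over all genes, 95.3% of the sham calls had the same sign in shunt animals, and those passing in both with the same sign were 68.7% of the sham and 63.9% of the shunt calls. These were Rpl13a, Rpl21, Rpl35a, Rps3 and Rps3a, lower in the left, and Rpl23a and Rpl7l1, higher in the left. Over all 12 arrays, 11 members had every left array below every right array, 6 the reverse, and 31 overlapped, beside 12.7% and 15.3% of all genes for the first and the second order. Across the 47 members without Rpl3l, which are not independent replicates, the differences in sham and shunt animals correlated with a Pearson r of 0.79, a description only, since each pair of values shares its probe set.

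Rpl13a, a large subunit protein that also takes part in silencing of inflammatory messenger RNAs, lay at 11.85, 11.82 and 11.81 on the left sham arrays and 12.26, 12.19 and 12.19 on the right sham arrays. After the shunt it lay at 11.94, 11.85 and 11.99 on the left and 12.16, 12.19 and 12.18 on the right. No left array reached a right array. It was lower in the left by 0.39 ± 0.06 (SE, n = 3 pools per group, limma, adjusted p = 0.000513) and 0.26 ± 0.06 (adjusted p = 0.00787), and it passed in all 20 other settings that tested it in each. Its pyrimidine run is the longest of the windows printed above.

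Rpl35a, a large subunit protein mutated in some patients with Diamond-Blackfan anaemia, was at 12.07, 12.03 and 12.06 on the left and 12.43, 12.42 and 12.40 on the right sham arrays. On the shunt arrays it was at 12.09, 12.05 and 12.12 on the left and 12.31, 12.35 and 12.31 on the right. The gap was thus narrower after the shunt, 0.24 ± 0.06 (limma, adjusted p = 0.0081) against 0.37 ± 0.06 (adjusted p = 0.00046), but the difference of the gaps, 0.13 ± 0.08, did not pass (adjusted p = 0.502).

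Rpl21 was at 11.42, 11.38 and 11.37 on the left and 11.81, 11.83 and 11.73 on the right sham arrays, and its gap was 0.40 ± 0.07 (limma, adjusted p = 0.000473). After the shunt the gap was 0.19 ± 0.07 (adjusted p = 0.0326), and this call was lost in 5 of 21 alternatives, among them those without right or left atrium shunt replicate 1 or 2. The difference of its gaps was 0.20 ± 0.09 (adjusted p = 0.343). In the small subunit, Rps3, which also has a part in DNA repair, was lower in the left by 0.26 ± 0.06 in sham (adjusted p = 0.00527) and 0.20 ± 0.06 in shunt animals (adjusted p = 0.0213). Rps3a was lower by 0.21 ± 0.06 (adjusted p = 0.0194) and 0.20 ± 0.06 (adjusted p = 0.0217).

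The call of Rps3 in shunt animals was lost without right atrium shunt replicates 1 or 2 or left atrium shunt replicate 2. That of Rps3a was lost in shunt animals without right replicate 2 or 3 or left replicate 1, and in sham animals without right replicate 1 or 2 or left replicate 1. Both genes kept their sign throughout.

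Higher in the left were Rpl23a and Rpl7l1. Rpl23a, which lies at the exit of the peptide tunnel, was at 12.19, 12.17 and 12.15 on the left and 11.89, 11.84 and 11.86 on the right sham arrays. On the shunt arrays it was at 12.13, 12.19 and 12.15 on the left and 12.01, 11.88 and 11.87 on the right. The left was above the right on every array, by 0.31 ± 0.06 in sham (limma, adjusted p = 0.00256) and 0.24 ± 0.06 in shunt animals (adjusted p = 0.0113), in all 21 alternatives of each. Rpl7l1 was at 8.59, 8.68 and 8.69 against 8.35, 8.36 and 8.45 in sham animals (0.26 ± 0.07, adjusted p = 0.00852) and differed by 0.24 ± 0.07 in shunt animals (adjusted p = 0.0143). Its second probe set gave 0.15 ± 0.07 and -0.08 ± 0.07, neither past the threshold, and the mean of both did not pass in shunt animals (0.08, adjusted p = 0.27).

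**Figure D4:**
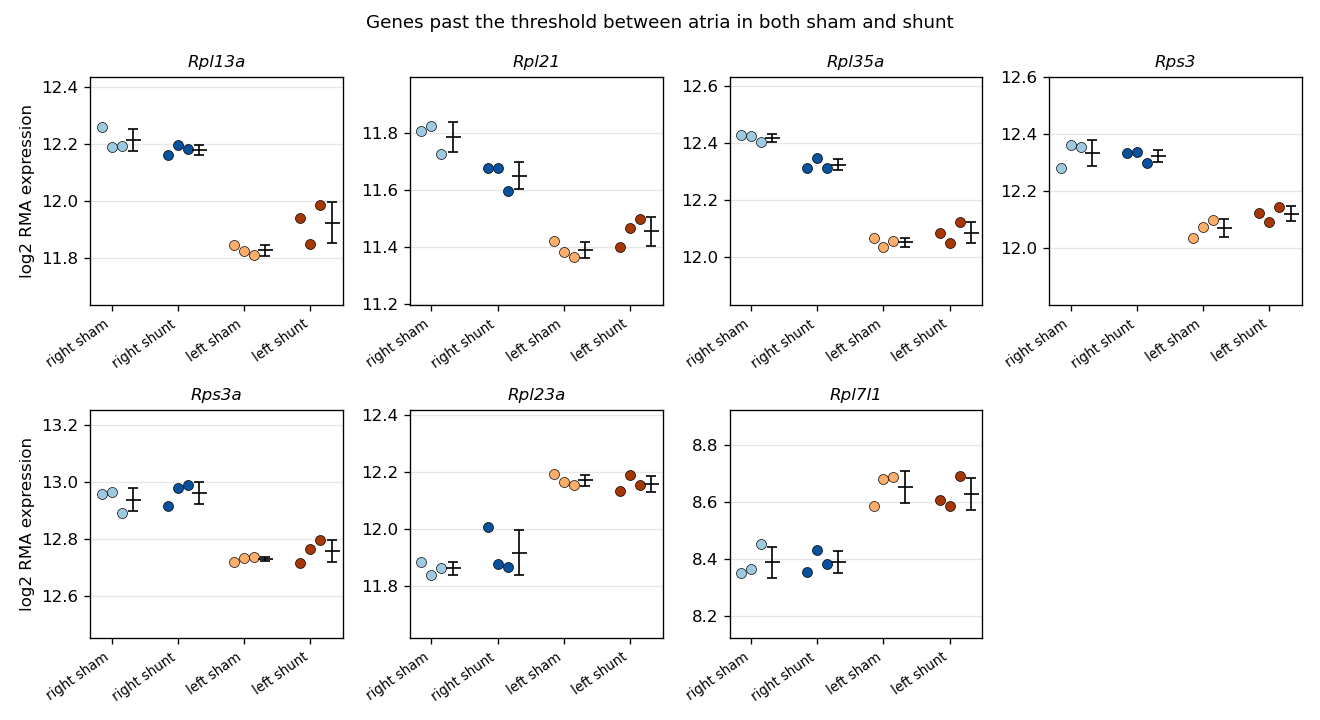
Log2 RMA values of the 7 members past the threshold between the atria in both sham and shunt animals, by group (points, replicates 1 to 3 from left to right; bars, mean ± SD, n = 3), each panel spanning 0.8 on the log2 scale. Rpl13a, Rpl21, Rpl35a, Rps3 and Rps3a are lower and Rpl23a and Rpl7l1 higher on all 6 left arrays.

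Members that passed in sham animals alone were Rps27l, Rpsa and Rpl19 (higher in the left) and Rpl39l1, Rpl39, Rps15a, Rps6 and Rpl26 (lower). Rps27l was at 6.07, 6.12 and 5.84 on the left and 5.65, 5.53 and 5.41 on the right sham arrays (0.47 ± 0.10, limma, adjusted p = 0.00287), and differed by 0.09 ± 0.10 in shunt animals (adjusted p = 0.511). The difference of these differences, -0.38 ± 0.14, did not pass (adjusted p = 0.266), so a difference between sham and shunt animals was not shown. Rps15a was lower by 0.30 ± 0.06 (adjusted p = 0.00286) and Rpl39, a small protein of the exit tunnel, by 0.31 ± 0.08 (adjusted p = 0.00694), and both passed in all 21 alternatives.

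Rps6 was lower by 0.18 ± 0.06 (limma, adjusted p = 0.0352), Rpl26, which binds the p53 messenger RNA, by 0.17 ± 0.06 (adjusted p = 0.0448), and Rpl19 higher by 0.17 ± 0.06 (adjusted p = 0.0432). These 3 calls were lost in several settings. Rpl26 and Rpl19 each failed in 11 of 12 exclusions of 1 array, passing without left atrium shunt replicate 3. Rps6 failed when any right sham array, or replicate 1 or 3 of the left sham arrays, was left out. Rpl39l1 was lower by 0.46 ± 0.14 (adjusted p = 0.0184) at a level of 3.13 to 3.76, near the bottom of the scale, and failed without right atrium sham replicates 1 or 2.

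Rpsa gave opposite answers on its probe sets. The brightest read it higher in the left of sham animals by 0.20 ± 0.07 (limma, adjusted p = 0.0323), at 11.92, 11.87 and 11.85 against 11.61, 11.72 and 11.73. The second, marked _s_at because it can read transcripts of several genes, read -0.31 ± 0.07 (adjusted p = 0.00314). The third, marked _x_at because its probes can cross-hybridise, read -0.32 ± 0.08 (adjusted p = 0.00537). The mean of the 3 was -0.15, so no direction can be given for Rpsa. The call of the brightest was also lost when replicate 1 or 2 of the right sham arrays, or any left sham array, was left out.

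In shunt animals alone Rpl3l, Rpl28 and Rps9 passed. Rps9 was at 12.09, 12.03 and 12.16 on the left and 11.89, 11.77 and 11.78 on the right shunt arrays (0.28 ± 0.07, limma, adjusted p = 0.00789). In sham animals it differed by 0.18 ± 0.07 (adjusted p = 0.0567), with no overlap between the groups in either. Rpl28 was lower by 0.39 ± 0.14 (adjusted p = 0.0468) at a level of 3.25 to 3.90, near the bottom of the scale, and failed in 9 of 12 exclusions of 1 array, passing when replicate 1 of the right shunt group, or 1 or 3 of the left sham group, was left out.

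**Figure D5:**
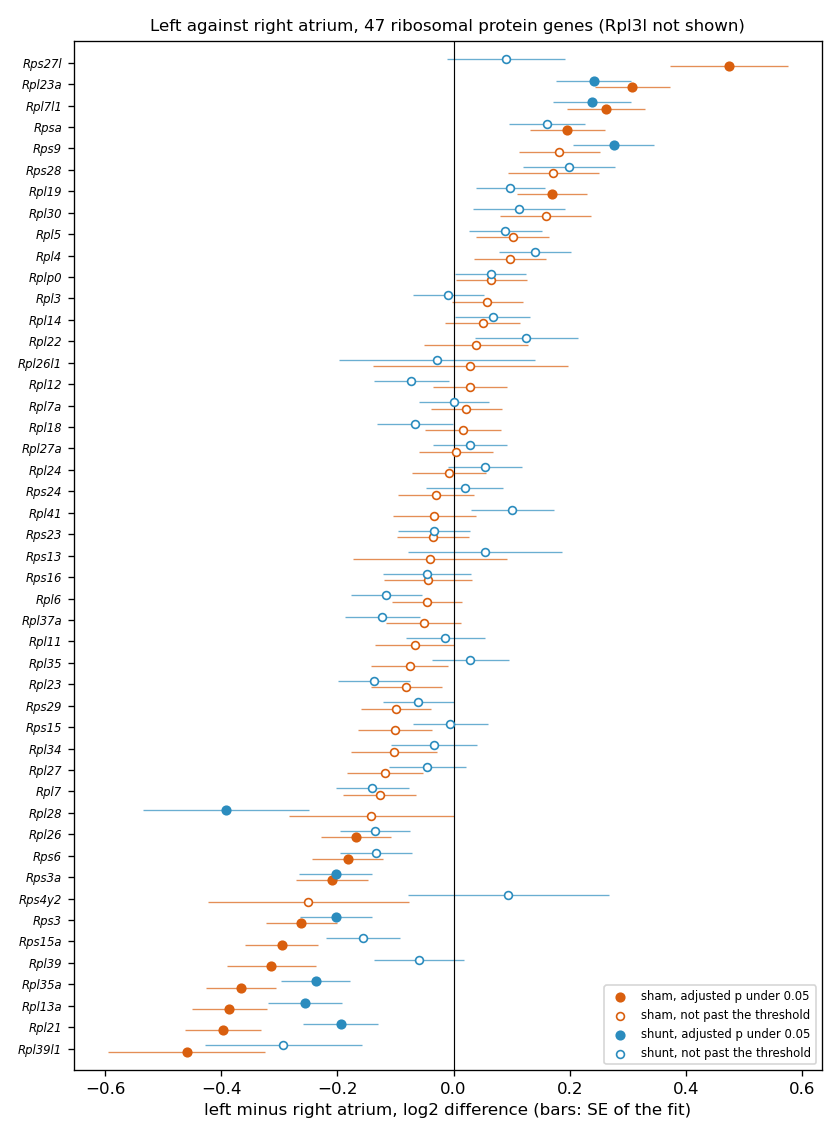
Left minus right log2 difference with its SE for 47 ribosomal protein genes in sham (orange) and shunt (blue) animals, ordered by the sham value; filled points passed an adjusted p of 0.05. Rpl3l, at -0.65 and -2.65, is left out so that the small differences of the others can be read; Rpl39l1, Rpl21, Rpl13a and Rpl35a stand lowest in sham animals and Rps27l and Rpl23a highest.

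A sign of RNA quality also parted the atria. The beta-actin control probe sets differed between their 3′ and 5′ ends by 1.58 to 1.82 on the right sham and 1.91 to 2.03 on the right shunt arrays, and by 1.31 on all left sham and 1.14 to 1.39 on the left shunt arrays. This difference grows as RNA degrades. It was also larger on every right shunt array than on any right sham array. Its part in the small left to right differences of the ribosomal protein genes, and in the Rpl3l difference after the shunt in the right atrium, was not tested.

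Some other genes of the translation machinery passed after the shunt. In the right atrium Pes1 (0.37) and Gnl3 (0.36), nucleolar proteins of ribosome assembly, rose of 34 measured genes of ribosome biogenesis and RNA polymerase I, none fell and 32 did not pass, with a median of 0.10. Of 73 mitochondrial ribosomal protein genes Mrps18b rose (0.34) and 72 did not pass (median 0.09). Of 7 other genes with oligopyrimidine messenger RNAs Vim, an intermediate filament of fibroblasts and other mesenchymal cells, rose (0.33), and 6 did not pass (median 0.12). None of 28 initiation (median 0.07), 11 elongation and termination (0.05), and 20 mTOR and S6 kinase genes (0.02) passed. The share called in the right atrium was 5.88% for ribosome biogenesis, 1.37% for mitochondrial ribosomal proteins and 14.3% for other oligopyrimidine genes. These shares lay on either side of the 3.97% of all genes. In the left atrium no gene of these 6 lists passed, against 0.935% of all genes.

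Left minus right, more genes of these lists passed, as did more of all genes, 37.6% in sham and 40.5% in shunt animals. The shares in sham animals were 72.7% for elongation and termination, 75% for mTOR and S6 kinase, 50% for biogenesis and 32.1% for initiation. They were 28.6% for other oligopyrimidine genes and 39.7% for mitochondrial ribosomal proteins. In sham animals 8 of 11 elongation and termination genes passed, 5 higher and 3 lower (median -0.05). Eef1a2, the elongation factor of adult muscle and nerve, was at 11.33, 11.41 and 11.33 on the left and 10.14, 9.93 and 10.21 on the right arrays (1.26 ± 0.08, limma, adjusted p = 5.51e-07). Eef1a1, its ubiquitous paralog, differed by -0.06 ± 0.06 (adjusted p = 0.523). Eef2, the translocase, was higher by 0.37 ± 0.09 (adjusted p = 0.00559) and Etf1, the release factor, lower by 0.80 ± 0.15 (adjusted p = 0.00141).

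Of 20 mTOR and S6 kinase genes 9 were higher and 6 lower in the left sham atrium (median 0.13). Akt1s1, an inhibitory partner of mTOR, was higher by 1.29 ± 0.11 (limma, adjusted p = 3.17e-06), and Rps6ka5, a nuclear kinase, lower by 1.69 ± 0.17 (adjusted p = 1.37e-05). Ribosome biogenesis had 11 higher, led by Dkc1 (0.83), a pseudouridine synthase, and 6 lower, led by Nip7 (-0.66), of 34 (median 0.09). Initiation had 5 higher, led by Eif4b (0.67), and 4 lower, led by Eif5b (-0.44), of 28 (median 0.08). Other oligopyrimidine genes had Eif4b higher and Gas5 (-0.40) lower, of 7 (median 0.15). Mitochondrial ribosomal proteins had 23 higher, led by Mrpl38 (1.12), and 6 lower, led by Mrps18c (-1.06), of 73 (median 0.10).

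In shunt animals the counts were 2 higher and 3 lower for elongation and termination, 7 and 9 for mTOR and S6 kinase, 8 and 7 for biogenesis, 6 and 4 for initiation, 1 and 1 for other oligopyrimidine genes and 10 and 13 for mitochondrial ribosomal proteins. In the same order the shares called were 45.5%, 80%, 44.1%, 35.7%, 28.6% and 31.5%, against 40.5% of all genes. Eef1a2 was still higher in the left by 0.85 ± 0.08 (limma, adjusted p = 1.53e-05) and Akt1s1 by 1.13 ± 0.11 (adjusted p = 1.35e-05).

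Some markers of other cells passed in these comparisons too. Beside them, 3.97% of all genes passed after the shunt in the right atrium and 0.935% in the left. Left minus right, 37.6% of all genes passed in sham and 40.5% in shunt animals. In the right atrium after the shunt 3 of 10 macrophage markers rose (Aif1, Lyz2 and Mrc1), 1 of 6 endothelial (Esam) and 1 of 8 neuronal (Prph), 1 of 9 atrial cardiomyocyte markers fell (Kcna5), and none of 7 fibroblast or 7 adipocyte markers passed. In the left atrium 2 of 8 neuronal markers rose (Prph and Uchl1), and none of the macrophage, endothelial, atrial cardiomyocyte, fibroblast or adipocyte markers passed. Left minus right in sham animals 3 macrophage markers were lower, 3 fibroblast markers higher and 1 lower, 2 endothelial higher and 1 lower, and 1 atrial cardiomyocyte and 1 adipocyte marker higher. In shunt animals 6 macrophage markers were lower, 2 fibroblast markers higher and 2 lower, 3 endothelial lower, and 4 neuronal, 3 adipocyte, 3 skeletal muscle and 1 atrial cardiomyocyte marker higher. The shares called left minus right in sham animals were 30% (macrophage), 57.1% (fibroblast), 50% (endothelial), 11.1% (atrial cardiomyocyte) and 14.3% (adipocyte). In shunt animals they were 60%, 57.1%, 50%, 11.1% and 42.9%, with 50% for neuronal and 30% for skeletal muscle markers. The part of other cells in the values of the ribosomal protein genes was not tested.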

How the data were processed

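RNA of 12 pools of atrial tissue was hybridised to 1-colour Affymetrix arrays. The deposited values are log2 expression per probe set, computed by the authors with RMA according to the submitters' processing notes (settings: not given in the sources used here). RMA subtracts background, quantile-normalizes and summarises probes. Of 31099 probe sets, 57 controls were left out and no other filter was applied. With limma 3.58.1 (R 4.3.3), a 4-group model gave 5 comparisons by two-sided tests, with Benjamini-Hochberg adjustment over 31042 probe sets and a threshold of 0.05. Scripts were tested on simulated data. The number of arrays limits the precision.

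The members and lists were chosen with earlier results of these data known. Named were Rpl3l, Rpl3, Rplp0, Rpsa, Rps6, paralogs with their parent genes, members past the threshold (at most 10 per direction), the 8 genes most like Rpl3l and list genes past it (at most 4 per direction); other names were chosen after their values were seen. Alternatives were a filter on dim probe sets, other normalization, variance models, array weights, fewer groups, a replicate block, other probe set choices and leaving out each array.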

Additional observations from a re-analysis of the deposited data

Results flagged for a closer look

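Rpl3l had shunt minus sham differences of opposite sign in the 2 atria, of which the right one passed (1.50, limma, adjusted p = 0.0332) and the left one did not (-0.49, adjusted p = 0.556). All 3 right atrium shunt arrays lay above all right sham arrays, and all 3 left atrium shunt arrays below all left sham arrays. The left minus right difference of the shunt effects was -1.998 ± 0.47 on the log2 scale (limma, unadjusted p = 0.000985), and it did not pass after adjustment over all probe sets (adjusted p = 0.144). No explanation was weighed.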

How the results depend on the processing

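The right atrium shunt count of 1 member (Rpl3l) was 0 with eBayes trend and robust options, in a fit of only the groups compared, with only probe sets with no suffix (Rpl3l has none such) and with right atrium shunt replicate 1 alone, and 0 to 1 over exclusions of 1 array. The left minus right count in shunt animals, 10, was 16 of 43 without dim probe sets, 21 with trend and robust options, 6 in the fit of only the groups compared, 1 with right atrium shunt replicate 1 alone, and 6 to 10 over exclusions (6 without right atrium shunt replicate 2). In sham animals, 15, it was 9 to 15 (9 without right atrium sham replicates 1 or 2). The left atrium count stayed 0 in all alternatives, and the interaction count was 0 to 1 (Rpl3l without right atrium shunt replicate 1). Of named members, Rpsa reversed to -0.15 in sham animals as the mean of its probe sets, and no other call changed sign. Rpl3l minus Rpl3, shunt minus sham over both atria, was 0.49 with all arrays and 0.35 to 0.76 over exclusions. With right atrium shunt replicate 1 alone it was -0.045, an alternative chosen after seeing the data, for an array picked by its low value. Left minus right over both conditions it was -1.95 to -1.53. By atrium it was 1.16 to 2.00 (right) and -0.55 to -0.35 (left), and left minus right -0.85 to -0.52 (sham) and -3.18 to -2.35 (shunt). The cause of these changes was not tested.

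The replicate numbers were not taken as pairs: deviations from the group means of same-numbered arrays correlated at 0.08 to 0.15 between atria and below 0 between sham and shunt. Every one of 12 arrays correlated best with its own number in the other atrium, a hint from the data and not the design. The replicate block gave each number 1 effect shared by all 4 groups. It thus tied sham to shunt arrays of a number too, and is not a model of left and right pairs within a condition. With this block, which ended the sham calls of Rpl19, Rpl26 and Rps6, 1, 0, 0, 12 and 10 members passed in the right, left, interaction, sham and shunt left minus right comparisons. Within numbered pairs, Rpl3l minus Rpl3 kept its values of 1.46, -0.47, -0.71, -2.64, 0.49 and -1.68. This was fixed beforehand, since the mean of pair differences equals the difference of group means. The last had p = 0.0312 (exact sign-flip test), the smallest 6 pairs allow. The first 4 rest on 3 pairs each, for which that test cannot go below 0.25. No p-value within pairs is given here for the change of 0.49.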

Other observations

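Members with a second probe set beside Rpsa and Rpl7l1 were Rpl3, Rpl7, Rpl14 and Rps24. The second probe set of Rpl3, marked _x_at, had a mean of 6.54 and differed by -0.03 ± 0.08 after the shunt in the right atrium, 0.09 ± 0.08 in the left and -0.16 ± 0.08 left minus right in sham animals, none past the threshold. That of Rps24, at a mean of 4.74, was lower in the left sham atrium by 0.59 ± 0.22 (limma, adjusted p = 0.0497), where the bright one differed by -0.03 ± 0.07. Those of Rpl7 (mean 5.49) and Rpl14 (mean 3.33) passed in none of the 5 comparisons.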
